A study of Mus musculus with 6 samples.

Results

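The 10 genes described here belong to the insulin-like growth factor (IGF) system and were read on Affymetrix Mouse Gene 1.0 ST GeneChips: the ligands *Igf1* and *Igf2*, the receptor *Igf1r*, the binding proteins *Igfbp2*, *Igfbp3*, *Igfbp4*, *Igfbp5*, *Igfbp6* and *Igfbp7*, and the protease gene *Pappa*. All 10 were among the 20405 genes of the array with a symbol, and each had 1 probe set, so the rule, by which a gene's probe set was selected on its mean RMA value over all 6 arrays, had no choice to make among them. The genes themselves were chosen by symbol with earlier results of these arrays known, so their counts and p-values describe these arrays and are no independent evidence. RNA came from M0505 cells (3 arrays), a cell line established from the ovarian surface epithelium of FVB/N mice and used at early passage, and from STOSE cells (3 arrays), the line into which M0505 cells transformed spontaneously during long-term culture. Both lines were grown in the same medium, which contained fetal calf serum, EGF and the supplement ITSS. Each group is a single cell line, the labels name the arrays as biological replicates without saying whether they came from separate cultures, and the p-values measure only the spread between these arrays.

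IGF1 and IGF2 are secreted peptides that signal through the IGF1 receptor, a tyrosine kinase that activates the PI3K-AKT and MAPK pathways and favors growth and survival. In the fluid around cells they are held by IGF-binding proteins, which can keep the ligand away from its receptor or carry it to the cell surface, and proteases such as PAPP-A release the ligand again. In the ovary the system is known for its part in follicle growth, where binding proteins 4 and 5 and PAPP-A are regulated in granulosa cells.

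The promoter sequences of the ligand and receptor genes that rose and of the binding protein genes with the largest rise and the largest fall are shown for context, as RefSeq gives them for assembly GRCm38.p6, from 250 bases before the transcript start to 50 bases after it. They are written 5′ to 3′ on the strand of the gene, and the capitals mark every CG pair, the pair of letters at which mammalian DNA can be methylated.
Igf1 promoter, chr10:87860861-87861160, plus strand: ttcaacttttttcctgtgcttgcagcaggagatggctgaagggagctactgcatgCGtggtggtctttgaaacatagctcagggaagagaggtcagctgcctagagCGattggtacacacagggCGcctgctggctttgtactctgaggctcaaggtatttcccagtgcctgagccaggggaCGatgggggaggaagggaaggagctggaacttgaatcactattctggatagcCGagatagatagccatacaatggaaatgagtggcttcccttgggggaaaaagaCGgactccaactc
Igf1r promoter, chr7:67952007-67952306, plus strand: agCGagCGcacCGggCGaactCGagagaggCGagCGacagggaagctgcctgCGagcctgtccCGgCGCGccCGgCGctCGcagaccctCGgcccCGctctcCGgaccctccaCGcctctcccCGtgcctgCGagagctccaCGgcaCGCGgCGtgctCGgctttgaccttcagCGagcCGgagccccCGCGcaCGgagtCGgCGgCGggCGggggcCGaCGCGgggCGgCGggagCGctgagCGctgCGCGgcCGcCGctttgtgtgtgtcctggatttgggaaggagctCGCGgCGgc
Igfbp4 promoter, chr11:99040994-99041293, plus strand: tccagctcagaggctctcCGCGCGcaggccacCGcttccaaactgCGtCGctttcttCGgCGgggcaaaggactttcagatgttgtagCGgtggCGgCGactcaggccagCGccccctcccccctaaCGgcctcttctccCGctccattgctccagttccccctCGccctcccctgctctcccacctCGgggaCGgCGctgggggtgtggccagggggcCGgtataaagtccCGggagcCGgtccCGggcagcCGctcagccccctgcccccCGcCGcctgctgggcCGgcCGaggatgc
Igfbp5 promoter, chr1:72874816-72875115, minus strand: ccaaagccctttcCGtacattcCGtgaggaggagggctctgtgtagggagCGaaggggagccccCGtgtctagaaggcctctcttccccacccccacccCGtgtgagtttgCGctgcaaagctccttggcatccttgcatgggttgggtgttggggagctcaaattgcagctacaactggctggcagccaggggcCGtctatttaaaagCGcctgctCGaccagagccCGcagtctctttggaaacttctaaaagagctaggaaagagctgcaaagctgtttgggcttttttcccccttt

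These windows differed widely in CG pairs, of which *Igf1* had 6, *Igfbp5* 10, *Igfbp4* 27 and *Igf1r* 48, against a median of 7 in 32851 promoters of the same length. *Igf1r* held more CG pairs than 98.8% of them and *Igfbp4* more than 84.5%. Of the other genes called lower in STOSE cells, *Igfbp2* held 18 and 14 CG pairs in its windows and *Igfbp7* 33. The window of *Igfbp3*, which was not called, held 37. The motif TATAAA, sought on both strands, was in 13.6% of all promoters and, of the 13 windows listed for 9 of the 10 genes, in those of *Igfbp4* and *Igfbp6*. In *Igfbp4* it lay on the strand of the gene and began 28 bases before the transcript start. In *Igfbp6* it lay only on the opposite strand. No window was listed for *Pappa*. Methylation was not measured.

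The values are robust multi-array average (RMA) values on a log2 scale, on which a difference of 1 is a 2-fold change. A gene was called higher or lower in STOSE cells at an adjusted p under 0.05, from limma with Benjamini-Hochberg adjustment over the 20405 genes, and a change of at least 2-fold. Of the 10 genes, *Igf1*, *Igf1r* and *Igfbp4* rose, *Igfbp2*, *Igfbp5* and *Igfbp7* fell, and *Igf2*, *Igfbp3*, *Igfbp6* and *Pappa* were not called. The 3 rises stand beside a background of 4.9% of all genes called higher and the 3 falls beside 7.59% called lower. Over all genes 1000 were called higher and 1548 lower, so that 39.2% of the calls were higher, and this balance turned with the scaling, to 1466 higher and 1177 lower (55.5% higher) with arrays centred on their median and 1149 and 1410 (44.9% higher) after a further quantile normalization. Centring raised every log2 fold change by 0.20, and the median over all genes from 0.08 to 0.28. The 6 calls among the 10 genes were the same under both scalings. Because the genes were listed with results known, nothing is read from that comparison. In 8 of the 10 genes the values of the lines did not overlap, which was also so for 64.6% of all genes. In these bulk RNA samples fewer cells that express a gene and less RNA of it per cell cannot be told apart.

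**Figure D1:**
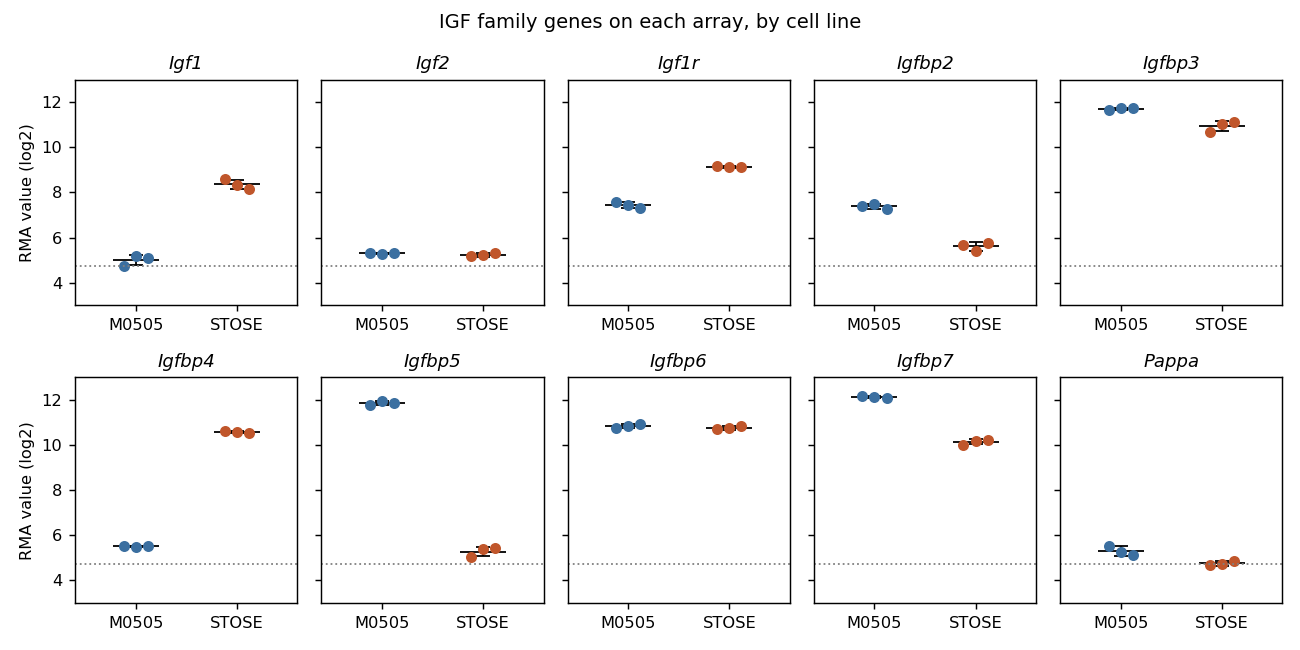
Each panel plots the RMA value (log2) of 1 gene on the 3 M0505 arrays (blue) and the 3 STOSE arrays (orange), with the mean (wide bar) and SD (capped bar), and the dotted line is the 95th percentile of olfactory receptor probe sets, 4.74. The lines are far apart for *Igf1*, *Igfbp4* and *Igfbp5* and overlap for *Igf2* and *Igfbp6*.

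*Igf1*, the gene of the ligand with the highest affinity for the IGF1 receptor, had log2 values of 4.74, 5.16 and 5.10 on the M0505 arrays and 8.59, 8.31 and 8.16 on the STOSE arrays. Every STOSE array lay above every M0505 array. The mean rose from 5.00 ± 0.23 (SD, n = 3) to 8.35 ± 0.22 (SD, n = 3), a rise of 10.2-fold or 3.35 on the log2 scale (SE 0.14, limma adjusted p = 3.37e-07, where SE is the standard error of the log2 difference). Leaving out single arrays moved it between 9.33-fold and 10.9-fold. It ranked 54 among the 1000 genes called higher. The M0505 level was close to background as judged by the 1134 probe sets of olfactory receptor genes, which these cells are taken not to express and whose values had a 95th percentile of 4.74, and a low signal limits how well the fold is known.

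*Igf2*, the gene of the fetal ligand, which is imprinted and expressed from the paternal copy in most tissues, was not called. Its log2 values were 5.33, 5.27 and 5.30 on the M0505 arrays and 5.16, 5.21 and 5.33 on the STOSE arrays, and the arrays of the lines overlapped. The difference was −0.07 on the log2 scale, with a 95% confidence interval of −0.21 to 0.08 (limma adjusted p = 0.397), and its sign turned, to 0.13, with arrays centred on their median. Both means lay little above the olfactory receptor 95th percentile, at 5.30 and 5.23.

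*Igf1r*, the gene of the receptor for both ligands, had log2 values of 7.59, 7.44 and 7.33 on the M0505 arrays and 9.20, 9.11 and 9.14 on the STOSE arrays. Every STOSE array again lay above the M0505 arrays. The rise was 3.23-fold (log2 difference 1.69, SE 0.08, limma adjusted p = 5.09e-07) and lay between 3.10-fold and 3.39-fold when single arrays were left out. The ligand *Igf1* and its receptor were therefore both higher in STOSE cells.

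The binding protein genes *Igfbp4* and *Igfbp5* had the largest changes of the 10, in opposite directions. IGFBP4 is known mainly as an inhibitor of IGF action, and IGFBP5 as a protein that binds matrix and can either inhibit or favor it. *Igfbp4* had log2 values of 5.52, 5.48 and 5.53 on the M0505 arrays and 10.63, 10.58 and 10.54 on the STOSE arrays. The values within each line lay close together (SD 0.03 and 0.04), and the difference between the lines was 5.07 with a 95% confidence interval of 4.94 to 5.20 (33.5-fold, limma adjusted p = 1.42e-09). It ranked 9 among the genes called higher. *Igfbp5* had log2 values of 11.79, 11.93 and 11.87 on the M0505 arrays and 5.03, 5.38 and 5.42 on the STOSE arrays. It fell by 6.59 on the log2 scale, with a 95% confidence interval of −6.83 to −6.34 (96.1-fold lower, limma adjusted p = 3.08e-09), and ranked 6 among the 1548 genes called lower. For *Igfbp4* the M0505 arrays and for *Igfbp5* the STOSE arrays were near, though above, the olfactory receptor 95th percentile. The printed promoters of this pair differ in CG pairs and in the exact motif TATAAA, as given above. Variants of that motif were not sought, and a link between these features and expression was not tested.

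**Figure D2:**
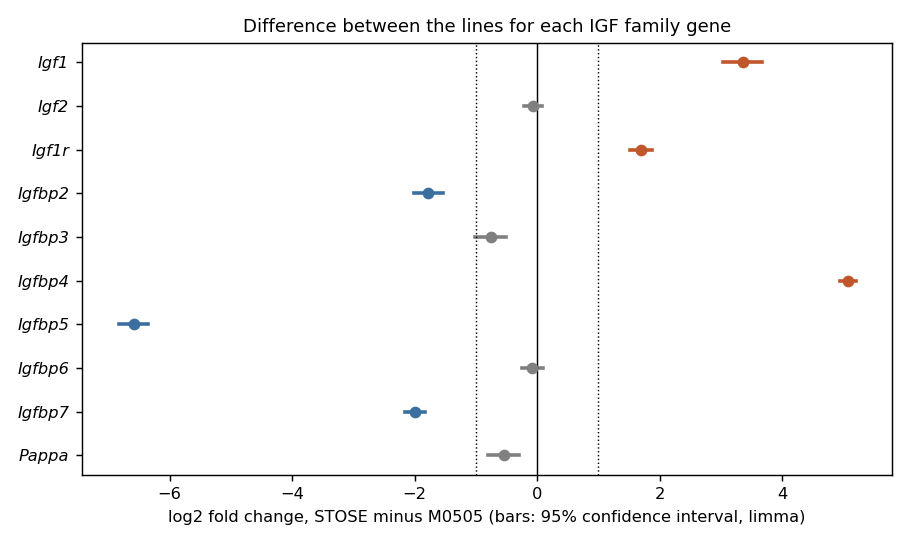
Points give the log2 fold change, STOSE minus M0505, of each gene, with bars for the 95% confidence interval from limma, in orange where called higher, blue where called lower and grey where not called. The dotted lines at −1 and 1 mark a 2-fold change, and the points run from −6.59 for *Igfbp5* to 5.07 for *Igfbp4*.

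Over the 6 arrays, after the mean of each gene was subtracted, the genes closest to *Igfbp4* were *Calcrl*, *Glipr1* and *Aif1l*, with root mean square differences of 0.10, 0.11 and 0.12 on the log2 scale. Those closest to *Igfbp5* were *Cybrd1*, *Gpr126* and *Gpr64*, at 0.16, 0.20 and 0.22. With 3 arrays in each of the lines this measure mostly reflects the size of the difference between them.

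*Igfbp2*, which encodes a binding protein that prefers IGF2, had log2 values of 7.40, 7.48 and 7.26 on the M0505 arrays and 5.67, 5.40 and 5.75 on the STOSE arrays. It was 3.42-fold lower in STOSE cells (log2 difference −1.77, SE 0.10, limma adjusted p = 1.84e-06). In the RefSeq order *Igfbp2* lies next to *Igfbp5* on chromosome 1, and these neighbours both fell. Among the 5 measured genes on each side of *Igfbp5*, 2 were called lower, *Igfbp2* itself among them, and 0 higher. Over all genes 7.59% were called lower and 4.9% higher. The log2 fold changes of these flanking genes ran from −1.77, that of *Igfbp2*, to 0.28.

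*Igfbp7*, whose product binds IGFs weakly and also binds insulin, fell by 1.99 on the log2 scale. Its log2 values were 12.17, 12.12 and 12.09 on the M0505 arrays and 10.01, 10.20 and 10.20 on the STOSE arrays. The STOSE level was 3.98-fold lower (SE 0.07, limma adjusted p = 1.43e-07), and the signal was still far above background in both lines.

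*Igfbp3*, the gene of the main carrier of IGFs in serum, passed the adjusted p but not the 2-fold threshold. Its log2 values were 11.66, 11.74 and 11.75 on the M0505 arrays and 10.70, 11.05 and 11.13 on the STOSE arrays. The difference was −0.76, with a 95% confidence interval of −1.01 to −0.51 (limma adjusted p = 0.000426), and the interval reached just past 2-fold. STOSE replicate 1 was the lowest of the 3 STOSE arrays, and without it the difference was −0.63. *Igfbp1*, next to *Igfbp3* on chromosome 11 in the RefSeq order, was low in both lines, at 4.78 ± 0.08 and 4.97 ± 0.15 (SD, n = 3).

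*Igfbp6*, which encodes a binding protein with a strong preference for IGF2, gave a strong signal in both lines and was not called. Its log2 values were 10.75, 10.85 and 10.94 on the M0505 arrays and 10.70, 10.75 and 10.86 on the STOSE arrays, which overlapped. The difference was −0.08, with a 95% confidence interval of −0.25 to 0.09 (limma adjusted p = 0.377), and it was 0.12 with arrays centred on their median. Of the 5 measured genes on each side of *Igfbp6* on chromosome 15, 1 was called higher and 2 lower, among them the keratin gene *Krt8* at a log2 fold change of −4.55.

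*Pappa* encodes the metalloprotease PAPP-A, which cleaves IGFBP4 and IGFBP5 and so frees the ligand they hold. Its log2 values were 5.53, 5.28 and 5.10 on the M0505 arrays and 4.68, 4.72 and 4.87 on the STOSE arrays. The arrays did not overlap, and the difference of −0.55 (SE 0.11, limma adjusted p = 0.00289) was under 2-fold. The STOSE mean of 4.76 was at the olfactory receptor 95th percentile.

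**Figure D3:**
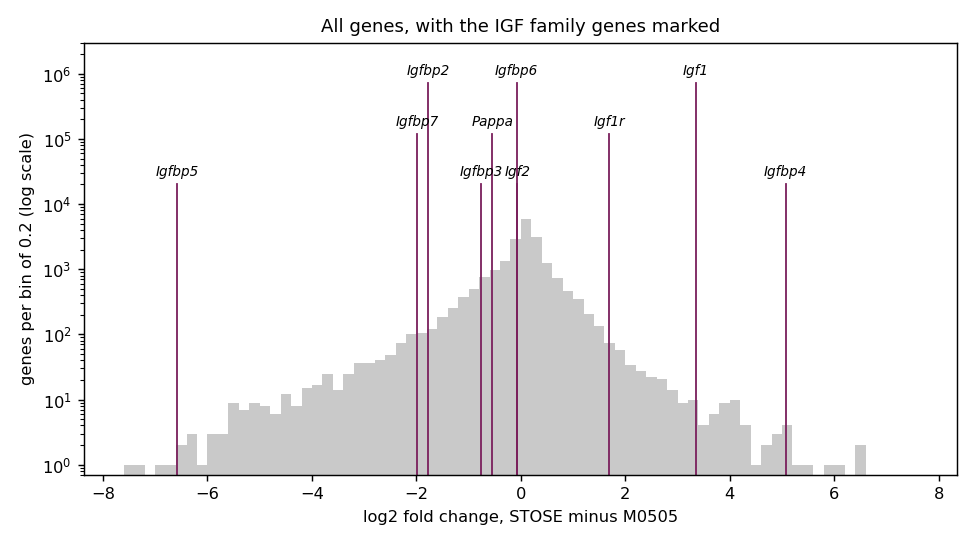
Grey bars count the 20405 genes by log2 fold change, STOSE minus M0505, in bins of 0.2 on a log axis, and the vertical lines mark the 10 IGF system genes, with line heights set only to separate the labels. *Igfbp4* and *Igfbp5* stand in the outer tails, while *Igf2* and *Igfbp6* lie in the central peak.

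The median log2 fold change of the 10 genes was −0.31, against 0.08 over all genes, and their values ran from −6.59 to 5.07. The 6 binding protein genes were 1 higher, 3 lower and 2 not called. By chromosome the 10 genes were spread, with *Igfbp2* and *Igfbp5* on 1, *Pappa* on 4, *Igfbp7* on 5, *Igf2* and *Igf1r* on 7, *Igf1* on 10, *Igfbp3* and *Igfbp4* on 11 and *Igfbp6* on 15. The paper reports aneuploidy in both lines. It describes terminal deletions of chromosomes 1 and 4 in M0505 cells. In STOSE cells it describes a terminal addition on chromosome 4 and loss of chromosome 5, among other changes. The part of copy number in these results was not tested. Around *Igf1* and *Igf1r* none of the 10 flanking genes (5 on each side) was called. Around *Igfbp7*, and likewise around *Pappa*, 1 flanking gene was called higher and 2 lower. For *Igf2* and for *Igfbp3*, 2 flanking genes were called higher and 0 lower. Around *Igfbp4* 1 flanking gene was called higher and 1 lower, with log2 fold changes from −1.27 to 1.14, so that the 5.07 of *Igfbp4* lay outside the range of its neighbours.

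The other genes of the IGF system were taken from 5 lists, described by counts. Beside these counts stand 4.9% of all genes called higher, 7.59% called lower and a median log2 fold change of 0.08. Of 8 further ligand, receptor and serum partner genes, 1 was called lower and 0 higher, and their median log2 fold change was −0.04, or 0.16 with arrays centred on their median. The gene called was *Insr*, that of the insulin receptor, which can pair with the IGF1 receptor in hybrid receptors. Its log2 values were 9.03, 9.21 and 9.06 on the M0505 arrays and 7.55, 7.75 and 7.58 on the STOSE arrays. It fell by 1.48 (log2 difference, SE 0.08, limma adjusted p = 1.16e-06), and a second probe set of the gene fell by 1.56. *Insr* was thus lower in STOSE cells while *Igf1r* was higher.

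*Igf2r*, the gene of the scavenging receptor that takes IGF2 to lysosomes, had means of 8.86 ± 0.07 and 8.66 ± 0.08 (SD, n = 3), a log2 difference of −0.20 (limma adjusted p = 0.0343) that was 0.0026 (adjusted p = 0.970) with arrays centred on their median. *Ins2*, a mouse insulin gene that lies near *Igf2*, was at 6.09 ± 0.15 and 5.45 ± 0.07 (log2 difference −0.64, limma adjusted p = 0.000262), and *Igfbpl1*, a gene related to the binding proteins, was at 4.25 ± 0.02 and 4.62 ± 0.06 (0.37, adjusted p = 0.000718). None of these reached 2-fold. *Igfbp1*, *Ins1*, *Igfals* (the acid-labile subunit of the serum complex) and *Insrr* (the insulin receptor-related receptor) did not pass the adjusted p, with log2 differences of 0.19, −0.18, 0.11 and 0.13. With arrays centred on their median these were 0.39, 0.02, 0.31 and 0.33. That of *Ins1* had turned its sign, and the other 3 passed the adjusted p. Both means of *Insrr*, 4.56 for M0505 and 4.69 for STOSE cells, also lay under the percentile of 4.74.

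Of the 8 genes for binding protein proteases and their inhibitors, 1 was called lower and 0 higher, with a median log2 fold change of −0.52. With arrays centred on their median 0 were called and the median was −0.32, with 5 lower and 2 higher by the adjusted p alone. In the main comparison 8 passed by the adjusted p alone, 6 of them lower and 2 higher, against 56.5% of all genes. The 2 that were higher were *Stc1* and *Stc2*, whose products are known to inhibit PAPP-A. Both were named after their values were seen and were under 2-fold, at 0.38 and 0.61. *Stc1* had means of 4.55 in M0505 and 4.93 in STOSE cells, with the olfactory receptor 95th percentile of 4.74 between them. Larger falls under 2-fold, also named after their values were seen, were those of *Ctsd* (−0.87), *Pappa2* (−0.72) and *Htra1* (−0.64). The gene called was *Adam12*, that of a protease known to cleave binding proteins, with log2 values of 6.15, 5.79 and 5.48 on the M0505 arrays and 4.88, 4.64 and 4.88 on the STOSE arrays. Its log2 fold change of −1.01 (SE 0.16, limma adjusted p = 0.000656) lay at the threshold and was −0.84 without M0505 replicate 1 and −0.93 without STOSE replicate 2, both under 2-fold. It was also under 2-fold, at −0.81, with arrays centred on their median and, at −0.99, after a further quantile normalization. The STOSE mean of *Adam12*, 4.80, was near the olfactory receptor 95th percentile of 4.74.

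Of 34 genes for receptor adaptors and PI3K-AKT-mTOR signaling, 3 were called higher and 0 lower, with a median log2 fold change of 0.09. *Grb14*, which encodes an adaptor that inhibits insulin receptor signaling, rose by 1.43 (log2 difference, SE 0.10, limma adjusted p = 5.34e-06), from 5.99, 6.31 and 6.25 to 7.49, 7.74 and 7.62. *Irs2*, an adaptor that carries the signal from the receptors to PI3K, rose by 1.09 (limma adjusted p = 2.32e-05). It was near the threshold, at 0.99 without STOSE replicate 1. In this list 31 genes were not called.

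Of 11 measured regulators of IGF ligand expression, 3 were called higher and 0 lower. *Hmga2*, which encodes a chromatin protein known to activate *Igf2bp2*, had log2 values of 5.68, 6.39 and 6.28 on the M0505 arrays and 10.70, 10.02 and 10.03 on the STOSE arrays. It rose 17.6-fold (log2 difference 4.13, SE 0.23, limma adjusted p = 1.52e-06), and between 15.0-fold and 19.3-fold when single arrays were left out. *Igf2bp1* and *Igf2bp2* encode RNA-binding proteins first known for binding *Igf2* mRNA. *Igf2bp1* rose from 6.01, 6.16 and 6.10 to 8.78, 8.73 and 8.63 (2.62 on the log2 scale, adjusted p = 2.29e-08), and *Igf2bp2* from 8.02, 8.12 and 7.92 to 9.83, 9.58 and 9.57 (1.64, adjusted p = 1.50e-06). A second probe set of *Igf2bp1*, which was dim in both lines, gave 0.77. These 3 genes rose in STOSE cells in which *Igf2* itself was not called.

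Of 14 FOXO target genes, which FOXO transcription factors are known to induce when signaling by insulin and IGFs is low, 7 were called lower and 2 higher, and the median log2 fold change was −1.04. Over all genes 7.59% were called lower and 4.9% higher. With arrays centred on their median, 6 of the list were called lower and 2 higher, with a median of −0.84. In the main comparison 5 were not called, among them *Cdkn1b* (0.04) and *Bcl2l11* (−0.07). Signaling was not measured. The FOXO genes themselves, in the adaptor list, were not called. Their log2 fold changes, named after they were seen, were −0.96 for *Foxo3*, −0.34 for *Foxo4* and 0.36 for *Foxo1*. Their part in the changes of the target genes was not tested. *Pik3ip1*, which encodes an inhibitor of PI3K, had means of 8.44 ± 0.13 and 6.17 ± 0.15 (SD, n = 3), a log2 fold change of −2.28 (SE 0.10, limma adjusted p = 3.74e-07). The sestrin genes *Sesn1* and *Sesn3*, which restrain mTOR, fell, with log2 fold changes of −2.06 and −1.75. *Ccng2*, a cyclin gene of resting cells, and *Pdk4*, which encodes a kinase that curbs glucose oxidation, fell with −1.70 and −1.68. The mean of *Pdk4* was 5.90 in M0505 cells. In STOSE cells it was 4.22, under the olfactory receptor 95th percentile of 4.74, which limits how well the fold is known. The genes that rose were *Irs2* and *Txnip*, the latter by 1.43 and named after its values were seen. *Insr*, also on this list, was among the 7 that fell.

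The labelled tissue was checked against markers. All 10 markers of the ovarian surface epithelium, *Wt1*, *Msln* and *Upk3b* among them, exceeded that background percentile of 4.74 in M0505 and in STOSE cells, and 3 were called lower in STOSE cells, namely *Krt7*, *Krt8* and *Krt19*. Their summed linear signal was 29318 to 30999 on the M0505 arrays and 17598 to 19272 on the STOSE arrays. Of 10 granulosa markers, 3 were called lower, *Inha*, *Amhr2* and *Nr5a1*, and the summed signal was 4312 to 4854 against 557 to 629, while 3 of the 10 lay under that percentile in both lines, *Fshr* and *Cyp19a1* among them, and *Foxl2* was above it at 6.76 and 6.39. For the theca and luteal list the sums were 2594 to 2671 against 80 to 97, with 1 of 5 genes called lower (*Star*), 0 higher and the other 4 under the percentile in both lines. The stromal fibroblast list had sums of 5840 to 6265 against 5721 to 6049, with 1 of 8 genes called higher and 1 lower, and the smooth muscle list 732 to 959 against 2672 to 3537, with 1 of 4 called higher and 1 lower. The endothelial sums were 827 to 905 against 109 to 110 and the leukocyte sums 793 to 1053 against 191 to 237, each with 1 of 5 genes called lower (*Kdr* and *Cd68*). Of the endothelial genes 2 were under the percentile in both lines, *Emcn* among them, and *Cdh5* (4.81 and 5.01) and *Tek* (4.76 and 4.78) were just above it. Of the leukocyte genes 3 were under it in both lines, *Ptprc* among them, and *Cd3e* was above it at 5.09 and 5.31. The stromal fibroblast sums overlapped between the lines. The sums of the other lists differed between the same lines as the IGF system genes did, and their part in those results was not tested. A linear sum mostly follows its brightest genes. Examples are *Star* (means 11.34 and 5.37), *Amhr2* (11.63 and 6.61), *Kdr* (9.58 and 4.41), *Cd68* (9.78 and 6.96) and *Acta2* (9.24 and 11.57). The paper places expression of *Amhr2* in the ovarian epithelium as well as in granulosa cells.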

How the data were processed

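RNA of M0505 cells (3 arrays) and STOSE cells (3 arrays) was hybridized to Mouse Gene 1.0 ST GeneChips (Affymetrix). Per the labels and the methods, the authors normalized the arrays by RMA in Affymetrix Expression Console (background correction, quantile normalization, probe set summary) and deposited log2 values, 1 column per array. The authors also deposited each line's mean and their own ratio and linear fold change of STOSE over M0505, which were not used. Versions, annotation release and genome build are not given in the sources used here.

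Of 28944 probe sets, 23530 had a gene symbol, and each of 20405 genes was represented by its brightest probe set on average. The lines were compared in R 4.3.3 with limma 3.58.1 (lmFit, eBayes) and no covariate. The median of an array lay between 5.64 and 5.68 over all probe sets, and over the 20405 genes between 6.46 and 6.49 for M0505 and between 6.25 and 6.29 for STOSE. Median centring used the medians over genes. Arrays have no read depth. Precision is limited by their number, and an exact permutation test of 3 against 3 cannot go under p = 0.1. On simulated data of this comparison (20405 genes, 200 changed) 99% of genes changed by 1.5 on the log2 scale and 100% of those changed by 3 were recovered, with 2 false calls. The simulation used independent normal noise for each gene and no shift in scaling. In the data 56.5% of all genes passed the adjusted p, so the simulated false calls do not measure the error there.

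The 10 genes and the lists were chosen with earlier results of these data known. The genes named singly are the 10 genes, all further ligand, receptor and serum partner genes, of each other list up to 6 called genes with the largest change whose arrays did not overlap, and the 3 genes closest in pattern to *Igfbp4* and *Igfbp5*. Flanking genes follow the RefSeq order of GRCm38.p6, in which 97.4% of genes were placed. The authors' table states no build. Promoters are those of RefSeq. The result of 1 gene called under this rule is not reported here. Alternatives were a further quantile normalization, median centring, removal of the dimmest 25% or 50% of genes, averaging of a gene's probe sets, an intensity trend with robust estimation, the methods' t-test (unadjusted and adjusted), other fold thresholds, the replicate number as a block, and leaving out each array.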

Additional observations from a re-analysis of the deposited data

How the results depend on the processing

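*Igf1*, *Igf1r*, *Igfbp4*, *Igfbp2*, *Igfbp5* and *Igfbp7* kept their calls under each alternative tried except the 4-fold threshold, and under it the higher genes called were *Igf1* and *Igfbp4* and the lower gene was *Igfbp5*. *Igf2* and *Pappa* were not among the genes tested when the dimmest 50% were left out. With no fold threshold 5 of the 10 genes were called lower, with *Igfbp3* and *Pappa* added, and at 4-fold 1 was. Of the list genes, 7 were called higher and 8 lower. Without a fold threshold these counts were 21 and 28, at 4-fold 2 and 2, and the lower count was 5 when the dimmest 50% of genes were left out. Over all genes the counts of 1000 and 1548 became 6454 and 5066 without a fold threshold and 186 and 509 at 4-fold, 1466 and 1177 with arrays centred on their median, and 1149 and 1410 after a further quantile normalization. With each array left out, 3 of the 10 genes were called higher and 3 lower each time, the list genes ranged from 6 to 7 higher and 7 to 9 lower, and all genes from 955 to 1065 higher and 1508 to 1591 lower. The call of *Adam12* was also lost after a further quantile normalization (−0.99) and with arrays centred on their median (−0.81). The cause was not tested beyond the smaller set of genes or samples that an alternative itself makes. Signals near or under the olfactory receptor 95th percentile limit the precision of the folds of *Igf1*, *Igfbp4*, *Igfbp5*, *Adam12* and *Pdk4*.

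The replicate numbers shared by the lines were not taken as pairs. Arrays with the same number had correlations of their deviations from the line means of 0.26, 0.04 and 0.25. STOSE replicate 2 correlated better with M0505 replicate 3 (0.12), and every other array correlated best with its own number. With the replicate number as a block (replicate block) 3 of the 10 genes were called higher and 3 lower, as without it, and the counts over all genes were 1001 and 1548.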
